A study of Homo sapiens with 8 samples.

Results

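The genes described here encode the integrins, the matrix proteins and the matrix-modifying enzymes of pancreatic carcinoma cells. They were chosen as a list of 49 gene symbols from these families, which were matched through their human Ensembl identifiers to the 20263 genes of the expression table. The cells were PANC-1, an established human line from a ductal carcinoma of the pancreas. One group received 10 µM Eupalinolide B (EB), a sesquiterpene lactone from Eupatorium lindleyanum, and the other group received the vehicle DMSO, both for 24 h. Each group had 4 libraries of mRNA, which the methods describe as biological replicates, although they also speak of triplicates. In the table, the libraries carry the letter C or H and a number. The letter C was taken to stand for control and so for DMSO. No source used here explains the letter H, and these columns were taken to be EB, as the only other treatment of the experiment. As a model, these cultures hold 1 cell line and no stromal cells, which are a main source of matrix in pancreatic tumors.

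Integrins are paired alpha and beta chains that span the cell membrane, bind matrix proteins outside the cell and anchor the actin or keratin skeleton inside it. The matrix beneath epithelial cells, the basement membrane, is built from laminin trimers, a network of type IV collagen and the heparan sulfate proteoglycan perlecan, while fibrillar collagens fill the space beyond it. Proteases of the MMP, ADAM and plasminogen activator families cut these proteins or release receptors from the cell surface, TIMP proteins block the metalloproteinases, and lysyl oxidases and lysyl hydroxylases crosslink or modify collagen. Pancreatic carcinoma is known for a dense collagen-rich matrix.

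Values are TPM, a measure of a gene's part in all transcripts of its library that takes transcript length into account. Differences are given as log2 fold changes of EB over DMSO on the log2(TPM + 1) scale, which understates the change of genes at low levels. Genes with at least 1 TPM in at least 4 libraries were tested, and the adjusted p is that of limma over all 11725 genes tested. A gene is written to have risen or fallen where this adjusted p was under 0.05. TPM keep no read number, so the depth behind each value is unknown and no counting interval can be given. In bulk libraries, fewer cells of a kind and less RNA per cell cannot be told apart.

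Of the 49 genes, 31 could be tested, and 27 of these reached 1 TPM in all 8 libraries. ITGB4 passed the filter only through the DMSO libraries and COL7A1 only through the EB libraries. Of the other 18 genes, 14 stayed under 1 TPM in every library, and SPARC and TIMP3 were listed at 0 throughout. The remaining 4, ITGB8, COL5A1, MMP2 and PLOD2, reached 1 TPM in too few libraries. With DMSO, the most abundant transcripts by mean TPM were those of the protease inhibitor TIMP1, the hyaluronan receptor CD44, TIMP2 and the integrin chain ITGB1, and with EB those of TIMP1, CD44, ITGB1 and the lysyl hydroxylase PLOD3. The median over the tested members was 33.7 TPM with DMSO.

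**Figure D1:**
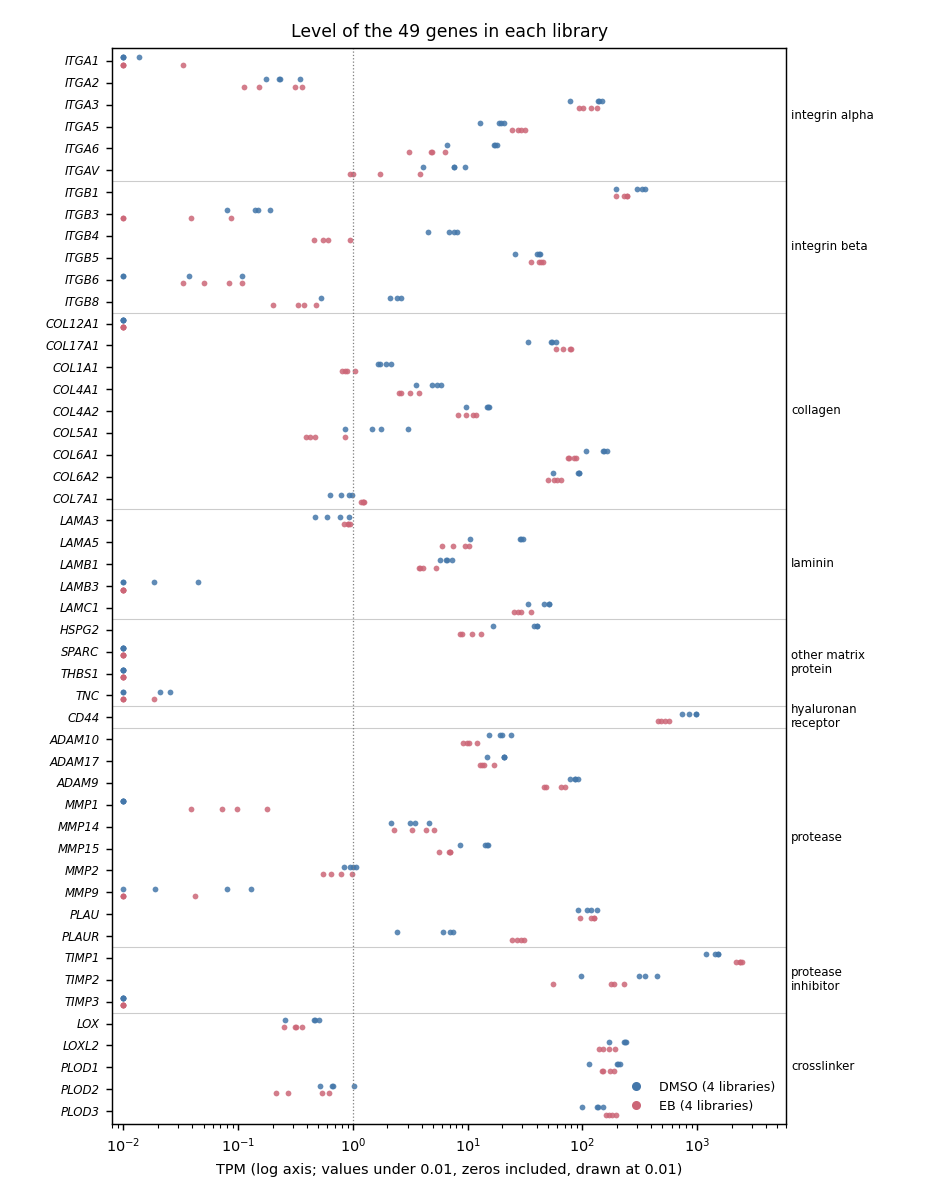
TPM of the 49 genes in each library on a log axis, grouped by class, with 4 DMSO and 4 EB libraries as points. TIMP1 lay highest, at 1194 to 1536 TPM with DMSO and 2210.1 to 2456 TPM with EB, and 18 genes did not pass the filter of 1 TPM in at least 4 libraries.

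With EB, 14 of the 31 tested members fell and 5 rose. The genes that fell were ITGA6, ITGAV, ITGB4, COL1A1, COL4A1, COL6A1, LAMA5, LAMB1, LAMC1, HSPG2, CD44, MMP15, ADAM9 and ADAM10. Those that rose were ITGA5, COL17A1, PLAUR, TIMP1 and PLOD3. Of the tested members, 45.2% were lower and 16.1% higher, beside 25.1% lower and 15.2% higher among all genes tested. The members were chosen with earlier results of these data known, so these shares need not hold for the families at large. Of 81 further tested genes of these families, described below, 27.2% were lower and 14.8% higher. When all genes above 0 in any library were tested with no filter, 16 of 47 members were lower and 5 higher, beside 18.8% and 11.8% of all genes. The median log2 fold change was −0.49 over the tested members and −0.11 over all genes tested. The study names its own thresholds, a fold change of more than 1.5 on the log2 scale in either direction with p under 0.05 before adjustment. By these, PLAUR was the 1 member higher and ITGB4, ITGAV and HSPG2 were the 3 lower, beside 0.537% higher and 1.54% lower of all genes tested. These calls are from the fit used here, which gave 63 genes higher and 181 lower. The paper's own counts differ, with more genes up than down, and were not reproduced. All EB libraries lay above all DMSO libraries for 6 tested members and below them for 12, beside 16.6% and 20.3% of all genes tested. A difference without overlap has an exact two-sided permutation p of 0.0286, the smallest that the 70 assignments of 8 libraries to 4 and 4 allow.

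**Figure D2:**
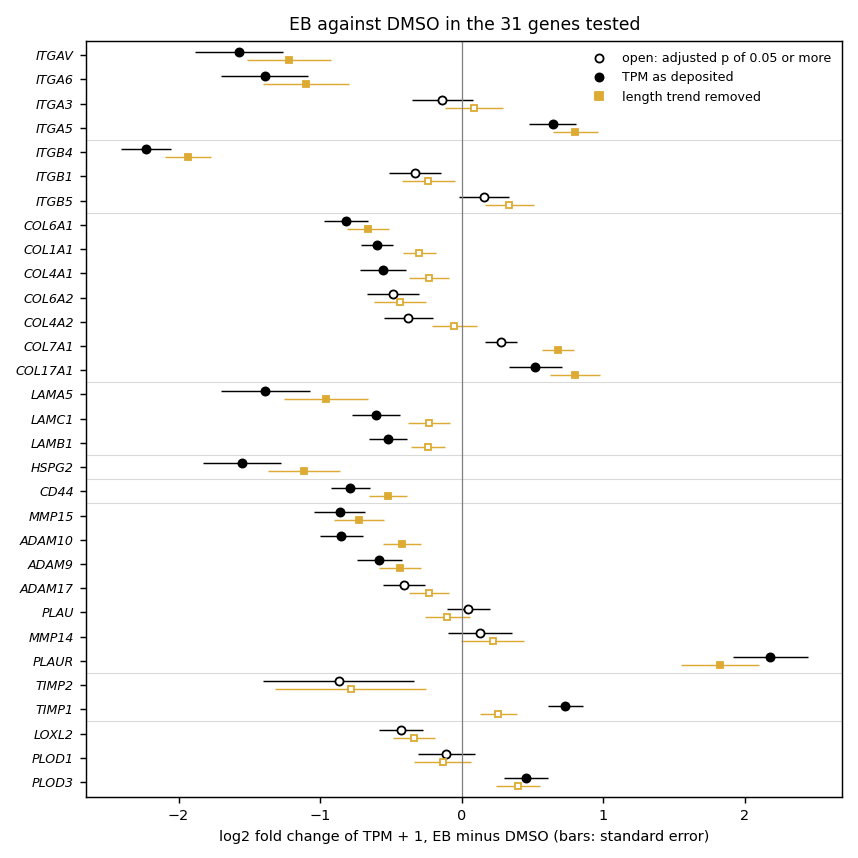
Log2 fold change of EB over DMSO with its standard error for the 31 tested genes by class, from TPM as deposited (black) and after removal of the trend on transcript length (gold), with open symbols at an adjusted p of 0.05 or more. ITGB4 lay lowest at −2.23 and PLAUR highest at 2.18.

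DMSO library 4 stood apart from the other DMSO libraries. Mitochondrial genes took 39.0% of its TPM, beside 17.0% to 21.1% in the other DMSO libraries. With EB they took 11.6% to 20.3%, with the highest share in EB library 4. DMSO library 4 had the lowest value of the DMSO group for 28 of the 31 tested members. Its part in the results was not tested, but without it 19 of 30 tested members were lower and 5 higher, beside 36.4% lower and 15.7% higher of all genes tested. Of the ductal markers, KRT8, KRT18 and KRT19 were above 1 TPM in every library, whereas KRT7, EPCAM and CDH1 stayed under 1 TPM in all 8, with a highest value of 0.458. The ductal markers summed to 992 to 1454 TPM with DMSO and 3209 to 3593 TPM with EB. The mesenchymal markers VIM and ZEB1 were also above 1 TPM in every library, and CDH2 and FN1 under 1 TPM in all. The mesenchymal sum, nearly all VIM, was 5890 to 6421 TPM with DMSO and 6498 to 7780 TPM with EB. Neither VIM nor ZEB1 was called. Of 5 basal epithelial markers, 4 stayed under 1 TPM, and TP63 fell from 104 ± 21.7 to 10.8 ± 4.40 TPM (SD, n = 4 each, log2 fold change −3.21, adjusted p = 7.18e-05), the lowest log2 fold change of all genes tested. The part of these keratin and TP63 changes in the values of ITGB4, ITGA6 and the laminins was not tested. Of 7 fibroblast markers, 6 were under 1 TPM in every library, DCN and LUM were listed at 0, and the sum, nearly all COL1A2, was 62.2 to 90.3 TPM with DMSO and 38.1 to 49.9 TPM with EB. Acinar markers were at 0, and immune markers summed to at most 1.94 TPM.

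The change with EB also varied with transcript length across the whole table, and this bears on matrix genes because many have long transcripts. The median length was 4440 nt over the tested members and 3222 nt over all tested nuclear genes. When nuclear genes were split by length into 5 classes of equal size, 37.2% of the shortest class (276 to 1742 nt) were higher with EB and 8.47% lower, whereas of the longest class (5589 to 34626 nt) 3.47% were higher and 46.0% lower. PLAUR and TIMP1 lie in the shortest class, and both rose. The longest class holds 13 members, of which COL17A1 rose and 10 fell, that is 76.9% lower. Across genes, Spearman's rho between length and log2 fold change was −0.54 over the 31 members and −0.48 over 11685 nuclear genes, a description over genes that share the same 8 libraries.

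After a smooth trend on length was removed from each library, 10 members were lower and 4 higher, beside 19.6% and 10.2% of all genes tested. ITGA6, ITGAV, ITGB4, COL6A1, LAMA5, HSPG2, CD44, MMP15, ADAM9 and ADAM10 were lower in both analyses, and ITGA5, COL17A1 and PLAUR were higher in both. COL1A1, COL4A1, LAMB1, LAMC1, TIMP1 and PLOD3 were called only with the length trend in place, and COL7A1 only without it. The members' median then was −0.23, beside −0.11 over all genes tested. Over the 31 tested members, Spearman's rho between length and log2 fold change was still −0.35 after this removal.

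**Figure D3:**
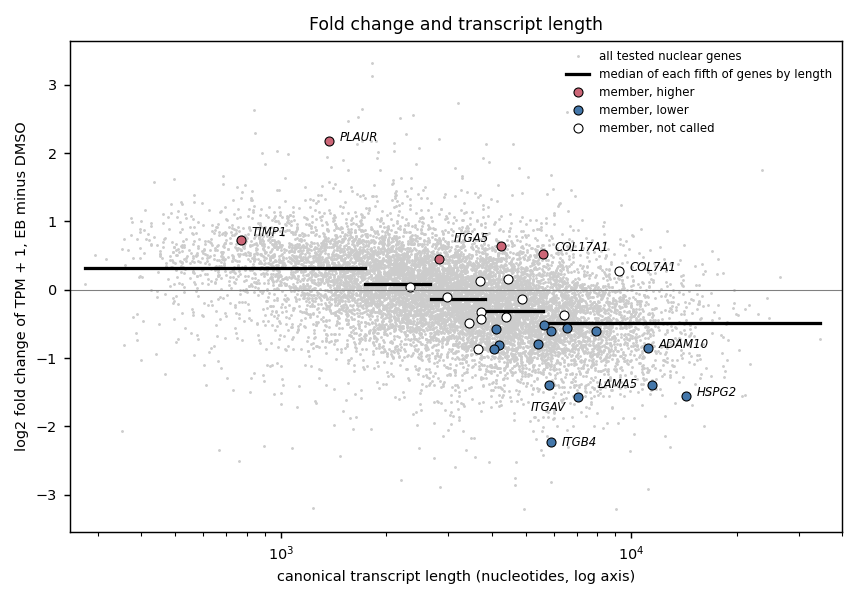
Log2 fold change of EB over DMSO against the length of the canonical transcript (log axis, nt) for all tested nuclear genes (grey) and the tested members (red higher, blue lower, white not called), with bars at the median of the nuclear genes in each of 5 length classes. That median ran from 0.32 in the shortest class to −0.49 in the longest, where 10 of 13 members fell.

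Of the 12 integrin chains, 7 were tested, of which ITGA5 rose and ITGA6, ITGAV and ITGB4 fell. That is 14.3% higher and 42.9% lower, beside 15.2% and 25.1% of all genes tested. The same 4 were called after removal of the length trend. The 3 that fell lie in the longest length class, in which 46.0% of nuclear genes were lower. ITGB4 (chr17:75721328-75757818, plus strand, hg38) encodes the beta chain of hemidesmosomes, the anchors that tie keratin filaments to laminin. It was measured at 6.91, 8.16, 7.61 and 4.55 TPM in the DMSO libraries and at 0.61, 0.951, 0.548 and 0.463 TPM in the EB libraries. Every EB library was under 1 TPM and far below the lowest DMSO library. The means were 6.81 ± 1.59 and 0.643 ± 0.214 TPM (SD, n = 4 each), 10.6-fold lower with EB, and the log2 fold change was −2.23 ± 0.18 (SE, adjusted p = 5.12e-05). ITGB4 entered the test only through its DMSO values, and when all genes were tested with no filter its adjusted p was 0.000305.

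ITGA6 (chr2:172427354-172506459, plus strand), the alpha chain that pairs with ITGB4 in hemidesmosomes and also with ITGB1, was measured at 17.0, 17.5, 18.1 and 6.56 TPM with DMSO and 6.31, 3.06, 4.89 and 4.77 TPM with EB. The groups did not overlap, but DMSO library 4 was close to the highest EB library. The log2 fold change was −1.39 ± 0.30 (SE, adjusted p = 0.00628), and −1.10 after removal of the length trend (adjusted p = 0.0219). The transcripts of ITGA6 and ITGB4 are of nearly equal length, 5816 and 5896 nt. The ratio of ITGA6 to ITGB4 was 2.11 ± 0.463 with DMSO and 8.20 ± 3.39 with EB (SD, n = 4 each), with every EB library above every DMSO library, where the EB values rest on ITGB4 levels under 1 TPM. COL17A1, the transmembrane collagen of the same hemidesmosomes, rose, as described with the collagens.

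ITGAV (chr2:186590010-186680901, plus strand) encodes the alpha chain shared by the RGD-binding receptors for vitronectin and fibronectin. Its levels were 7.67, 9.43, 7.62 and 4.12 TPM with DMSO and at 3.83, 1.73, 0.945 and 0.999 TPM with EB. The groups did not overlap, although EB library 1 came near DMSO library 4. The log2 fold change was −1.57 ± 0.31 (SE, adjusted p = 0.00394), and −1.22 without the length trend (adjusted p = 0.0134). Its partner ITGB5 was at 37.8 ± 8.03 TPM with DMSO and 41.6 ± 4.18 TPM with EB (SD, n = 4 each, log2 fold change 0.16 ± 0.18, adjusted p = 0.507). The ratio of ITGAV to ITGB5 was 0.159 to 0.223 with DMSO and 0.0218 to 0.0914 with EB.

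ITGA5 (chr12:54395261-54419266, minus strand), the alpha chain of the classical fibronectin receptor, was the tested integrin that rose. Its levels were 20.7, 19.5, 18.7 and 12.8 TPM with DMSO and 27.4, 32.0, 29.2 and 24.5 TPM with EB. All EB libraries were above all DMSO libraries, and the means were 17.9 ± 3.49 and 28.3 ± 3.13 TPM (SD, n = 4 each). The difference was 0.64 ± 0.16 (SE, adjusted p = 0.0127) and 0.80 without the length trend (adjusted p = 0.00527). Its partner ITGB1, the beta chain shared by most integrins here and the most abundant of them, was at 298, 349.8, 333 and 198 TPM with DMSO and at 196, 245, 232 and 246 TPM with EB. These groups overlapped through DMSO library 4, and the difference was −0.33 ± 0.19 (SE, adjusted p = 0.184).

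ITGA5 and ITGAV, both alpha chains that recognize RGD-containing ligands, moved in opposite directions. In ratios chosen after the values were seen, ITGA5 was 2.07 to 3.12 times ITGAV with DMSO and 7.15 to 30.9 times ITGAV with EB. The EB ratios rest on low ITGAV levels, at 0.945 and 0.999 TPM in EB libraries 3 and 4. The ITGA5 and ITGAV transcripts also differ in length, at 4250 and 7039 nt. Per ITGB1 transcript, ITGA5 was at 0.0616 ± 0.00678 with DMSO and 0.124 ± 0.0171 with EB, and ITGA6 at 0.0486 ± 0.0107 and 0.0213 ± 0.00813 (SD, n = 4 each), with no overlap for either. ITGA3, the main alpha chain by level and a laminin receptor with ITGB1, was at 126 ± 32.2 and 113 ± 18.7 TPM (SD, n = 4 each, adjusted p = 0.635), and its ratio to ITGB1 overlapped between the groups. ITGB8, an activator of latent TGF-beta together with ITGAV, was below the filter, at 0.527 to 2.62 TPM with DMSO and 0.201 to 0.482 TPM with EB. ITGA2, a collagen receptor chain, stayed between 0.113 and 0.357 TPM, and ITGA1, ITGB3 and ITGB6 did not exceed 0.19 TPM.

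Of the 9 collagen genes, 7 were tested, of which COL1A1, COL4A1 and COL6A1 fell and COL17A1 rose. That is 42.9% lower and 14.3% higher, beside 25.1% and 15.2% of all genes tested. Without the length trend, COL6A1 was lower and COL17A1 higher, as was COL7A1, which entered the test only through its EB values. COL6A1 (chr21:45981770-46005050, plus strand) encodes a chain of the beaded-filament collagen VI. It was measured at 156, 165, 150.2 and 108 TPM with DMSO and at 84.6, 87.4, 74.6 and 76.6 TPM with EB, with all EB libraries below all DMSO libraries. The log2 fold change was −0.82 ± 0.15 (SE, adjusted p = 0.00317), and −0.66 without the length trend (adjusted p = 0.00893). COL6A2, a second chain of the same trimer, was at 83.3 ± 18.5 and 58.2 ± 6.10 TPM (SD, n = 4 each), which did not pass the threshold (adjusted p = 0.0586). The ratio of COL6A1 to COL6A2 was 1.755 ± 0.133 with DMSO and 1.40 ± 0.113 with EB (SD, n = 4 each), with no overlap.

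COL17A1, the hemidesmosomal collagen, was measured at 54.7, 58.9, 53.5 and 34.0 TPM with DMSO and at 78.9, 79.3, 67.9 and 59.6 TPM with EB. The lowest EB library was just above the highest DMSO library. The means were 50.3 ± 11.1 and 71.4 ± 9.51 TPM (SD, n = 4 each), and the log2 fold change of 0.52 ± 0.19 (SE) had an adjusted p of 0.0499, at the edge of the threshold, and it was 0.80 without the length trend (adjusted p = 0.00839). The call was lost in 8 of 18 alternative analyses. COL7A1, which forms the anchoring fibrils below hemidesmosomes, was at 0.982, 0.786, 0.925 and 0.636 TPM with DMSO and 1.17, 1.24, 1.22 and 1.22 TPM with EB. Its groups did not overlap, but its level lay at the filter and its adjusted p was 0.0762, or 0.0207 when all genes were tested with no filter.

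The 2 type IV collagen chains that make up the main basement membrane network were at 4.95 ± 0.998 and 3.02 ± 0.552 TPM for COL4A1 and at 13.7 ± 2.76 and 10.3 ± 1.58 TPM for COL4A2 with DMSO and EB (SD, n = 4 each). COL4A1 fell by 0.56 on the log2 scale (adjusted p = 0.0214), although its groups overlapped (exact two-sided permutation p = 0.0571), and was not called without the length trend (adjusted p = 0.251) or in 7 of 17 alternative analyses in all. COL4A2 did not pass the threshold (adjusted p = 0.112). These genes lie head to head, and the 126 bases between their RefSeq starts are shown because the stretch lies upstream of both starts. By the GENCODE positions COL4A2 begins at 110305812, so the genes overlap. The stretch is intergenic only by the RefSeq starts.

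COL4A1-COL4A2 intergenic stretch, chr13:110307158-110307283, plus strand, GRCh38.p14 (COL4A1 starts to its left on the minus strand, COL4A2 to its right): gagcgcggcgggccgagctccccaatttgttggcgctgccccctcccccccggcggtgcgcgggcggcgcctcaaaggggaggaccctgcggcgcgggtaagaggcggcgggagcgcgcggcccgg

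G and C make up 80.2% of these bases. The transcripts differed in level, with COL4A1 at 0.332 to 0.380 of COL4A2 with DMSO and 0.272 to 0.317 with EB. COL1A1, a chain of the type I collagen fibril, was measured at 1.71, 2.17, 1.66 and 1.95 TPM with DMSO and at 1.05, 0.885, 0.806 and 0.846 TPM with EB. The groups did not overlap and only 1 EB library reached 1 TPM, with a log2 fold change of −0.60 ± 0.12 (SE, adjusted p = 0.00354), and −0.30 without the length trend (adjusted p = 0.0781). Its partner COL1A2, which is no member, was far higher at 79.4 TPM with DMSO and 43.9 TPM with EB, so COL1A1 was 0.0179 to 0.0315 of COL1A2 over all 8 libraries. COL5A1, a regulator of fibril width, was below the filter at 0.86 to 3.04 TPM with DMSO and 0.387 to 0.851 TPM with EB. COL12A1 was listed at 0 in 7 of 8 libraries.

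All 3 tested laminin chains fell, beside 25.1% of all genes tested, and LAMA5 was also lower without the length trend. These 3 transcripts lie in the longest length class, in which 46.0% of nuclear genes were lower. LAMA5 (chr20:62307955-62367312, minus strand), a laminin alpha chain of many basement membranes, was measured at 30.3, 28.9, 29.1 and 10.6 TPM with DMSO and at 9.42, 10.3, 7.49 and 5.99 TPM with EB. The groups did not overlap, but DMSO library 4 lay just above the highest EB library. The log2 fold change was −1.39 ± 0.31 (SE, adjusted p = 0.00743), and −0.96 without the length trend (adjusted p = 0.0349), for a transcript of 11426 nt. LAMC1, the gamma chain of most laminins, was measured at 46.4, 51.7, 51.5 and 33.9 TPM with DMSO and at 29.2, 36.0, 25.5 and 27.8 TPM with EB. EB library 2 lay above DMSO library 4, so the groups overlapped (exact two-sided permutation p = 0.0571), and the log2 fold change was −0.61 ± 0.17 (SE, adjusted p = 0.018). This call was lost in 5 of 18 alternative analyses. LAMB1 went from 6.51 ± 0.637 to 4.26 ± 0.738 TPM (SD, n = 4 each, adjusted p = 0.0136). Its ratio to LAMC1 was 0.144 in both groups, whereas LAMA5 was at 0.522 ± 0.147 of LAMC1 with DMSO and 0.279 ± 0.0454 with EB (SD, n = 4 each), with overlap. Of the chains of the epithelial laminin that hemidesmosomal integrin binds, LAMA3 was at 0.469 to 0.942 TPM and LAMB3 at no more than 0.0449 TPM.

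HSPG2 (chr1:21822244-21937310, minus strand) encodes perlecan, the large proteoglycan of basement membranes. Its levels were 37.8, 40.3, 40.3 and 16.5 TPM with DMSO and at 10.9, 13.0, 8.51 and 8.93 TPM with EB. DMSO library 4 was again the lowest of its group and still above every EB library. The means were 33.7 ± 11.5 and 10.3 ± 2.06 TPM (SD, n = 4 each), and the log2 fold change was −1.55 ± 0.28 (SE, adjusted p = 0.00242), with −1.11 without the length trend (adjusted p = 0.00975). Its canonical transcript of 14341 nt shares 11.6% of its exon bases with the opposite-strand gene LDLRAD2, which averaged 0.647 TPM. The other matrix proteins were hardly detected. TNC, or tenascin C, stayed at or under 0.0253 TPM, THBS1 was listed at 0 with DMSO and reached at most 0.00924 TPM with EB, and SPARC was listed at 0.

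CD44 (chr11:35138882-35232402, plus strand), the receptor for the matrix sugar hyaluronan, was measured at 858, 740.2, 989 and 975 TPM with DMSO and at 490.0, 531, 459 and 574 TPM with EB. The groups were well apart, and here DMSO library 4 was among the higher libraries of its group. The means were 891 ± 116 and 514 ± 50.1 TPM (SD, n = 4 each), with a log2 fold change of −0.79 ± 0.14 (SE, adjusted p = 0.00229), and −0.52 without the length trend (adjusted p = 0.018). CD44 took 17.6% to 26.4% of the members' summed TPM with DMSO and 10.2% to 13.0% with EB.

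**Figure D4:**
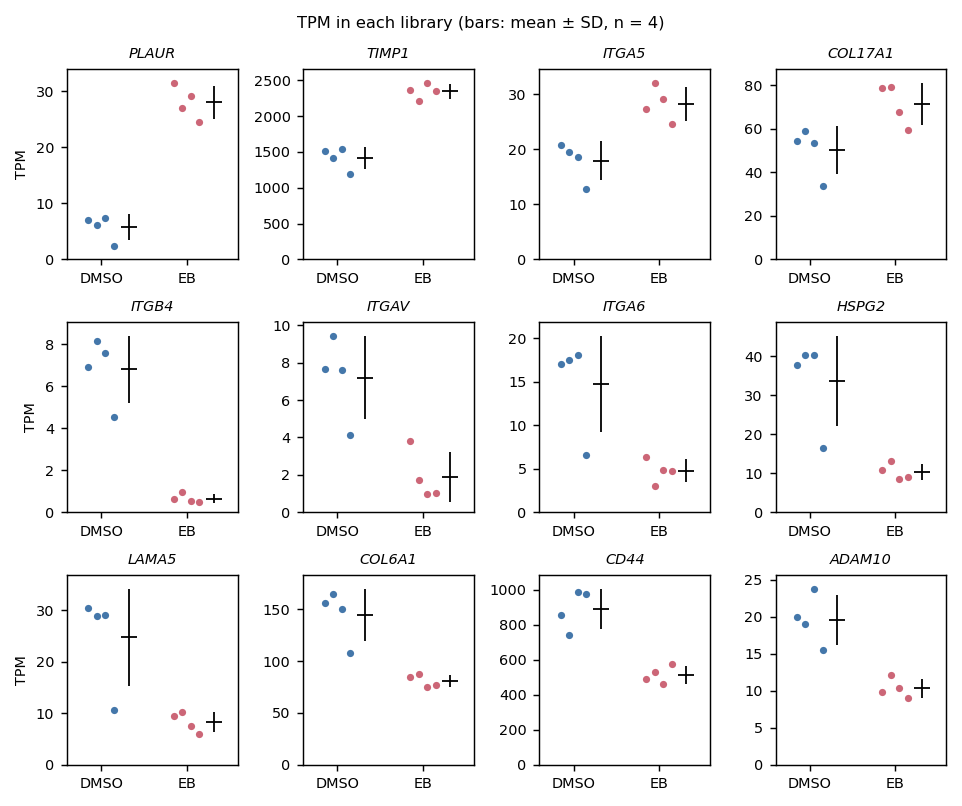
TPM per library (points) with mean ± SD (n = 4) for 12 members with DMSO and EB, each panel with its own axis from 0. ITGB4 averaged 6.81 and 0.643 TPM, and PLAUR 5.76 and 28.0 TPM.

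Of the class of 10 proteases, counted with the urokinase receptor PLAUR, 7 were tested, of which PLAUR rose and MMP15, ADAM9 and ADAM10 fell, with the same calls after removal of the length trend. That is 14.3% higher and 42.9% lower, beside 15.2% and 25.1% of all genes tested. PLAUR (chr19:43646095-43670547, minus strand) encodes the urokinase receptor, which holds the plasminogen activator urokinase at the cell surface. It was measured at 7.05, 6.16, 7.42 and 2.40 TPM with DMSO and at 31.4, 27.0, 29.1 and 24.5 TPM with EB. The EB libraries were all far above the DMSO libraries. The means were 5.76 and 28.0 TPM, 4.87-fold higher with EB, with coefficients of variation of 39.9% and 10.4% (n = 4 each), and the log2 fold change was 2.18 ± 0.27 (SE, adjusted p = 0.000397), with 1.82 without the length trend (adjusted p = 0.00138).

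PLAU, the gene of urokinase itself, was at 134, 109.5, 119 and 91.5 TPM with DMSO and at 126, 127, 119 and 95.9 TPM with EB. These values overlapped throughout (log2 fold change 0.05 ± 0.15, SE, adjusted p = 0.827), and PLAU shares 18.3% of its exon bases with the opposite-strand gene C10orf55. The ratio of PLAUR to PLAU was 0.0493 ± 0.0159 with DMSO and 0.241 ± 0.0192 with EB (SD, n = 4 each), with no overlap.

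The promoters were searched for TGANTCA, the binding motif of AP-1 (FOS and JUN dimers), on both strands, because PLAUR is a textbook AP-1 target. The windows of 250 bases before to 50 after the start came from RefSeq on GRCh38.p14 and covered 38 of the 49 members. The motif was found in 4 of 49 member windows (8.16%) and in 2707 of all 35116 windows (7.71%). Among the windows of tested members, 2 of 30 held it (6.67%). Of the members that rose, ITGA5 and PLAUR held it, whereas COL17A1, TIMP1 and PLOD3 did not. No member that fell and had a window held it, and ITGB4, COL1A1, COL6A1 and ADAM9 had no window. Of the members below the filter, LAMA3 and LAMB3 held it. Because the motif was chosen for PLAUR, its match there is no independent result. The stretches around each match are given on the strand of the gene, with the match in capitals.

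ITGA5, chr12:54419255-54419283, minus strand: cctccccgcgtTGAGTCAttcgcctctgg
LAMA3, chr18:23872884-23872912, plus strand: ctggcacaggcTGACTCAtgtgtgaagtt
LAMA3, chr18:23872940-23872968, plus strand: ccttcctcaccTGAGTCAggcaggcccgg
LAMB3, chr1:209651424-209651452, minus strand: gtcagccactcTGACTCAttcactttggg
PLAUR, chr19:43670338-43670366, minus strand: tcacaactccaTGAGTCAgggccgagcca

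The match lay 186 bases before the RefSeq start of PLAUR. The 250 bases before that start are shown whole because this gene had the largest rise among the members. By the GENCODE positions used for the genes here, these bases and the LAMA3 and LAMB3 matches lie within the genes.

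PLAUR upstream, chr19:43670170-43670419, minus strand, GRCh38.p14: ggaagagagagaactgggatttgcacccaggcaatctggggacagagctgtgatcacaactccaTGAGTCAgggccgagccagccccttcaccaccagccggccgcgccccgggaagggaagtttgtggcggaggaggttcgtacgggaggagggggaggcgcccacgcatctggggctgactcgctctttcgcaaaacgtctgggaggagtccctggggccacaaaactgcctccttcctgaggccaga

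A match describes these letters only and is no measured binding site.

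MMP15 (chr16:58025754-58046901, plus strand), a membrane-type metalloproteinase, was measured at 14.9, 14.1, 15.2 and 8.58 TPM with DMSO and at 6.95, 6.96, 7.08 and 5.67 TPM with EB. The highest EB library was below the lowest DMSO library, and the log2 fold change was −0.86 ± 0.18 (SE, adjusted p = 0.00515). MMP14, the membrane-type metalloproteinase best known for collagen invasion, was at 3.33 ± 1.01 and 3.76 ± 1.24 TPM (SD, n = 4 each, adjusted p = 0.678). ADAM10, a sheddase of cell-surface proteins that cuts CD44 and Notch receptors, was at 19.9, 19.1, 23.8 and 15.4 TPM with DMSO and at 9.86, 12.1, 10.3 and 9.08 TPM with EB, with no overlap and a log2 fold change of −0.85 ± 0.15 (SE, adjusted p = 0.00253). On its transcript of 11158 nt the change was −0.42 without the length trend (adjusted p = 0.0392). ADAM9 went from 85.5 ± 5.15 to 57.7 ± 12.2 TPM (SD, n = 4 each, adjusted p = 0.0168). ADAM17, the sheddase of TNF, was at 19.3 ± 2.98 and 14.3 ± 1.76 TPM (SD, n = 4 each, adjusted p = 0.0531), and 28.6% of its exon bases overlap IAH1 on the other strand. The secreted collagenases and gelatinases were near or under 1 TPM. MMP1 was listed at 0 in all DMSO libraries and at 0.039 to 0.178 TPM with EB, MMP9 did not exceed 0.13 TPM, and MMP2 ranged from 0.547 to 1.07 TPM.

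TIMP1 (chrX:47582408-47586789, plus strand), the secreted inhibitor of most MMPs, was the most abundant member. It was measured at 1517, 1422, 1536 and 1194 TPM with DMSO and at 2371, 2210.1, 2456 and 2348 TPM with EB, so every EB library was above every DMSO library. The log2 fold change was 0.73 ± 0.12 (SE, adjusted p = 0.00192). Its transcript of 769 nt is short, and without the length trend the change was 0.26 (adjusted p = 0.155). TIMP1 took 31.7% to 33.9% of the members' summed TPM with DMSO and 48.3% to 54.8% with EB, while that sum was 0.369% to 0.484% of the library with DMSO and 0.439% to 0.458% with EB.

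TIMP2, which also takes part in activating pro-MMP2, varied widely between replicates, with coefficients of variation of 48.8% and 46.6%. It was at 355, 98.3, 447 and 310.1 TPM with DMSO and at 55.2, 233, 177 and 189 TPM with EB. DMSO library 2 and EB library 1 were far below the others of their groups, the groups overlapped, and the log2 fold change of −0.87 ± 0.53 (SE) did not pass the threshold (adjusted p = 0.217). Without DMSO library 2 it was −1.34 (adjusted p = 0.0477). TIMP3 was listed at 0.

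Of the 5 collagen crosslinking genes, 3 were tested and PLOD3 rose (33.3%), beside 15.2% of all genes tested. PLOD3, a lysyl hydroxylase that also glucosylates collagen, was measured at 138, 151, 135 and 98.7 TPM with DMSO and at 172, 183, 196 and 159.9 TPM with EB. The groups did not overlap, and the log2 fold change was 0.45 ± 0.15 (SE, adjusted p = 0.0386), with 0.40 and an adjusted p of 0.0784 without the length trend. This call was lost in 6 of 18 alternative analyses. PLOD1 was at 184 ± 45.9 and 166 ± 18.6 TPM (SD, n = 4 each, adjusted p = 0.689). LOXL2, a lysyl oxidase that acts on type IV collagen, was at 232, 243, 237 and 173 TPM with DMSO and at 169.6, 192, 139.7 and 152 TPM with EB. DMSO library 4 lay within the EB range, and the difference of −0.43 ± 0.16 (SE) missed the threshold (adjusted p = 0.0505), which it passed in 8 of 18 alternative analyses. Its ratio to COL4A2 was 15.3 to 17.9 with DMSO and 15.1 to 16.9 with EB. LOX stayed between 0.253 and 0.509 TPM and PLOD2 between 0.214 and 1.03 TPM.

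Among 152 further genes of the same families, 81 were tested, of which 22 fell (27.2%) and 12 rose (14.8%), beside 25.1% and 15.2% of all genes tested, with a median log2 fold change of −0.24. Without the length trend, 16 were lower and 15 higher, with a median of −0.05. Of 5 tested genes for other basement membrane proteins, 4 fell, among them LAMA2 (4.97 to 1.83 TPM, log2 fold change −1.08, adjusted p = 0.000342) and LAMB2 (35.7 to 17.8 TPM, −0.92, adjusted p = 0.00998). All 5 lie in the longest length class, in which 46.0% of nuclear genes were lower, and 2 were lower without the length trend. NID1, another of the 4, entered the test only through its DMSO values (adjusted p = 0.0317 with no filter). It was not called without the length trend (adjusted p = 0.396). AGRN, the heparan sulfate proteoglycan agrin, also fell (76.3 to 35.3 TPM, adjusted p = 0.0131), although its groups overlapped and it was not called without the length trend (adjusted p = 0.0702). Of 29 tested genes of the adhesion complex and its membrane partners, 7 fell (24.1%) and 3 rose (10.3%), or 5 and 5 without the length trend, and the focal adhesion protein TNS3 went from 75.0 to 20.9 TPM (log2 fold change −1.74, adjusted p = 0.000897). DDR1, a collagen-binding receptor kinase, fell from 23.7 to 9.21 TPM (adjusted p = 0.00274), and CD82, a tetraspanin that associates with integrins, fell by 1.03 on the log2 scale (adjusted p = 0.00556). Of 2 other integrin chains tested, ITGAE, the alpha chain of an E-cadherin receptor, rose from 1.52 to 3.23 TPM (adjusted p = 0.00145).

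Of 7 other collagens tested, 1 rose (14.3%) and 2 fell (28.6%), beside 15.2% and 25.1% of all genes tested. COL1A2 (log2 fold change −0.83, adjusted p = 0.00281) and COL5A2 (−0.83, adjusted p = 0.00677) fell and COL13A1 rose, of which COL5A2 was not called without the length trend (adjusted p = 0.0504). COL13A1, a transmembrane collagen, went from 1.31 to 6.94 TPM (log2 fold change 1.79, adjusted p = 6.22e-05). Of 13 other matrix proteins, 4 rose (30.8%) and 3 fell (23.1%), beside 15.2% and 25.1% of all genes tested. CCN1, a matricellular integrin ligand, was at 35.2 TPM with DMSO and 172 TPM with EB (log2 fold change 2.27, adjusted p = 3.09e-05). ECM1 rose from 1.88 to 5.26 TPM (adjusted p = 0.00253) and the thrombospondin THBS3 fell from 43.2 to 18.2 TPM (adjusted p = 0.00239). Of 15 other proteases and inhibitors, 2 rose (13.3%) and 5 fell (33.3%), beside 15.2% and 25.1% of all genes tested. The lysosomal protease gene CTSL went from 134 to 358 TPM (log2 fold change 1.41, adjusted p = 4.93e-05), and PLAT, the tissue plasminogen activator, from 7.66 to 2.02 TPM (log2 fold change −1.54, adjusted p = 0.000197). The secreted serine protease HTRA1 fell from 65.1 to 32.5 TPM (adjusted p = 0.0021). Of 10 collagen assembly genes, 1 rose and 1 fell (10% each), beside 15.2% and 25.1% of all genes tested. P4HA2, a prolyl hydroxylase, rose (20.6 to 40.8 TPM) and CRTAP, which works with prolyl 3-hydroxylase, fell (log2 fold change −0.66, adjusted p = 0.00236), the latter not called without the length trend (adjusted p = 0.0505). The other further genes named here kept their call without the length trend.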

How the data were processed

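RNA sequencing libraries of PANC-1 cells treated with DMSO or 10 µM EB for 24 h were compared, with 4 libraries per group. The authors deposited TPM for 20263 genes, normalized within each library. The methods give CLC Genomics Workbench for trimming, mapping and normalization, name HISAT2 and StringTie as further tools, and give both GrCM38, a mouse build, and hg38. All identifiers were human. Read counts were not used here, so depth per library and its precision are unknown. Whether counting used strand is not given in the sources used here.

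Symbols, positions and canonical transcript lengths came from GENCODE release 44 (20148 identifiers matched). Genes with at least 1 TPM in at least 4 libraries were tested on log2(TPM + 1) with limma 3.58.1 in R 4.3.3 (lmFit, eBayes, prior degrees of freedom 3.88), with Benjamini-Hochberg adjustment and an adjusted p threshold of 0.05. For the length analysis, a natural spline of 4 degrees of freedom on length was removed from each library. Single values were compared by exact two-sided permutation over libraries. Tables used the R package data.table (version 1.17.8), Python 3.11.15, numpy 2.4.6, pandas 2.3.3, scipy 1.17.1 and matplotlib 3.10.9. The test was checked on simulated data for EB against DMSO with 11725 genes, where 60% of genes changed by 1 and 96% of those changed by 1.5 on the log2 scale were found and 10 unchanged genes were called. The simulated noise was independent between genes, and changes were set only in genes above a minimum level with DMSO. It held no deviation shared by the genes of a library, as seen in DMSO library 4, so these numbers describe that setting only.

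Values in every library are given for members past the study's thresholds and for the 2 that changed most on the log2 scale in each class with 3 or more tested. ITGA5, COL7A1, COL17A1, CD44, PLAU, ADAM10, TIMP1 and TIMP2 were added to these after their values were seen. Of each class of further genes, at most the 3 with the largest absolute change at an adjusted p under 0.05 are named. NID1 is named besides because it entered the test only through its DMSO values. The members and all lists were chosen with earlier results of these data known. The alternatives tried were no filter, a pseudocount of 0.1, a minimum of 5 TPM, median-ratio scaling, quantile normalization, nuclear genes rescaled, length or length and GC trends removed, an eBayes trend, a replicate block and each library left out.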

Additional observations from a re-analysis of the deposited data

Results flagged for a closer look

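In each group of 4 libraries, the highest or lowest value was compared with its neighbour and marked by Dixon's test at the 95% level. Chance alone marks about 1 in 20 independent groups, but the groups here share the same 8 libraries. Of 62 groups over the 31 tested members, 12 were marked, and 11 of these were low values in DMSO library 4. They were ITGA3 at 78.5, ITGA6 at 6.56, ITGB5 at 25.9, COL4A2 at 9.63, COL6A2 at 55.6, LAMA5 at 10.6, HSPG2 at 16.5, MMP15 at 8.58, ADAM17 at 14.9, LOXL2 at 173 and PLOD1 at 115 TPM. MMP15 was also marked in EB library 4, at 5.67 TPM. Mitochondrial genes took 39.0% of the TPM in DMSO library 4, and its part in these values was not tested.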

How the results depend on the processing

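The 5 members called higher ranged from 3 to 5 when each library was left out in turn, the 14 called lower from 11 to 19, and the 4 past the study's thresholds from 1 (without DMSO library 2) to 5 (without DMSO library 4). In these fits 30 members were tested, and 16.9% to 36.4% of all genes tested were lower and 10.6% to 15.7% higher. Past those thresholds there were 2 members with a minimum of 5 TPM, with median-ratio scaling, with quantile normalization and after removal of the length trend or of the length and GC trends. There were 6 with nuclear genes rescaled and 5 with a pseudocount of 0.1. Removal of the length and GC trends left 9 members lower, beside 20.1% of all genes tested. ITGA5, PLAUR, ITGA6, COL6A1, LAMA5, HSPG2, CD44 and MMP15 kept their call under all 18 alternatives, ITGAV under the 17 and ITGB4 under the 13 in which they passed the filter. ITGB4 did not pass it with a minimum of 5 TPM or without any 1 of the DMSO libraries. COL17A1 lost it in 8, COL4A1 in 7, PLOD3 in 6, LAMC1 in 5, LAMB1 in 3, COL1A1, TIMP1 and ADAM9 in 2 each, and ADAM10 in 1. A call was gained by LOXL2 in 8, by COL6A2 and ADAM17 in 6 each, by COL7A1 in 6 of 13, by ITGB1 in 3, by COL4A2 in 2, and by ITGB5, PLOD1 and TIMP2 in 1 each. Rescaling to nuclear genes gave 21 of 34 tested members lower (61.8%), beside 41.4% of all genes, and moved the median of all genes from −0.11 to −0.28. Higher calls were 37.7% of all calls, 51.2% with median-ratio scaling, 50.3% with quantile normalization and 22.7% with nuclear genes rescaled.

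Members not called changed sign as follows, and the cause was not tested. ITGA3 was 0.088 after removal of the length trend and 0.0935 after removal of the length and GC trends. ITGB5 was −0.0255 and MMP14 −0.01 with nuclear genes rescaled, and PLOD1 was 0.0215 with median-ratio scaling. PLAU was −0.0967 with quantile normalization, −0.1372 with nuclear genes rescaled, −0.101 after removal of the length trend and −0.1092 after removal of the length and GC trends. When each library was left out in turn, ITGB5 ranged from −0.013 to 0.2248, MMP14 from −0.0178 to 0.2947 and PLAU from −0.0508 to 0.1389, the lowest always without DMSO library 4, and MMP14 was also below 0 without EB library 1. With a replicate block there were 5 higher, 17 lower and 4 past the study's thresholds. Of all genes tested, 19.0% were higher and 30.1% lower with that block. Libraries with the same number correlated at 0.183, 0.0463, −0.0879 and 0.284 in their deviations, and 2 of 4 numbers correlated best with their own. The mitochondrial share ranked the numbers in the same order in both groups, with library 4 highest. Whether same-numbered libraries are pairs was not settled, and the main test did not treat them as such. TPM keep no depth, which limits every low value.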
